A study of Mus musculus with 6 samples.

Results

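Thermogenic genes serve heat production in brown and beige fat cells. The RNA of 7 of them, Ucp1, Cidea, Cox8b, Cox7a1, Ppargc1a, Dio2 and Elovl3, was followed in the stromal vascular cells of mouse inguinal white adipose tissue (iWAT), the fat pad under the skin of the groin. The genes were taken by symbol from the 31053 genes listed with the counts, and no measured value entered the choice. Cells came from C57BL/6 male mice, young at 9 weeks of age or aged at 57 weeks, in 3 temperature groups at each age, with 1 single-cell RNA sequencing library per age and temperature and thus 6 libraries. Mice of every group lived at 30 °C for 3 weeks at the start. The TN (thermoneutral) mice stayed at 30 °C for 2 weeks longer, the 3D cold mice had 11 more days at that temperature and then 3 days at 6 °C, and the 14D cold mice had 14 days at 6 °C. The labels name no transgene, and the supplier of the mice, which could be either of 2 with different C57BL/6 substrains, is not given for each library, nor is the number of mice per library. Live cells were sorted and CD45+ immune cells removed, and mature fat cells float off during this isolation, so that the libraries hold mainly progenitors, endothelial cells and mural cells.

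Ucp1 encodes uncoupling protein 1, which lets protons leak back across the inner mitochondrial membrane so that the energy of fuel oxidation leaves the cell as heat. Cold reaches fat through noradrenaline, β-adrenergic receptors and cyclic AMP. In this pathway Ppargc1a encodes a coactivator that drives the making of mitochondria, and Dio2 an enzyme that turns thyroxine into active thyroid hormone. Cidea encodes a lipid droplet protein and Elovl3 an enzyme that elongates very long fatty acids. Cox8b and Cox7a1 encode the forms of cytochrome c oxidase subunits found in heart, muscle and brown fat, whose widespread counterparts are Cox8a and Cox7a2. In iWAT the programme is known for beige adipocytes, which appear in the cold and can arise from progenitors or from fat cells already present.

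Positions are those of GENCODE vM21 on GRCm38, the build of the counts. Ucp1 lies on chromosome 8 (83290352-83298452, plus strand), Cox8b on chromosome 7 (140898945-140900446, minus strand) and Cox7a1 on the same chromosome (30184144-30186078, plus strand). Ppargc1a lies on chromosome 5 (51454250-51567726, minus strand) and overlaps the predicted genes Gm42614, Gm42615 and Gm43605 on its own strand. Dio2 lies on chromosome 12 (90724552-90738438, minus strand) and Elovl3 on chromosome 19 (46131897-46135694, plus strand). Counts are of whole genes, exons joined, and the identifiers with the counts matched the annotation for these genes.

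The 250 bases before the start are shown for the 3 genes on which the results below turn, from RefSeq on GRCm38.p6, 5′ to 3′ on the gene's own strand. Such stretches were at hand for 5 of the 7 genes. Capitals mark 2 of the 4 motifs that were searched on both strands, TGACG, the core of the cyclic AMP response element, and AGGTCA, the core bound by many nuclear receptors. The windows are chr8:83290098-83290347 (plus) for Ucp1, chr7:140900447-140900696 (minus) for Cox8b and chr5:51567726-51567975 (minus) for Ppargc1a.
Ucp1: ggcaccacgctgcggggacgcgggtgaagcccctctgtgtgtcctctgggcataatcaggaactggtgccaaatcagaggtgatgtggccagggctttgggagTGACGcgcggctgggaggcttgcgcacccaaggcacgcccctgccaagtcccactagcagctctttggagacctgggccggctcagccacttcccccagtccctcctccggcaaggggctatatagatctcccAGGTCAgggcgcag
Cox8b: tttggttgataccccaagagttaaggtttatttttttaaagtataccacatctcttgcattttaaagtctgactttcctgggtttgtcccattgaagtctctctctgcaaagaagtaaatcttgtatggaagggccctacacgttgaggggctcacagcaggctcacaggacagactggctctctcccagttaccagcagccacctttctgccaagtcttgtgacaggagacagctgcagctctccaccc
Ppargc1a: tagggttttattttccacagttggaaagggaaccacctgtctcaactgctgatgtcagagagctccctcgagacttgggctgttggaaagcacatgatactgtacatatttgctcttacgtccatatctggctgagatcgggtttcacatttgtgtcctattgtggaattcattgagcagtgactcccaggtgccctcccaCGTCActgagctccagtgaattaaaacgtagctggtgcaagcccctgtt
The Ucp1 window held TGACG starting 147 bases and AGGTCA 14 bases before the start. The Ppargc1a window held TGACG on the opposite strand, read here as CGTCA, 49 bases before the start. The Cox8b window held neither. Among 32851 RefSeq windows of the same length, 17.8% held TGACG and 14.0% AGGTCA. The longer motifs TGACGTCA, which contains TGACG, and TNAAGGTCA, which contains AGGTCA, were in 1.55% and 1.14% of the windows. Of the 5 genes Dio2 held TGACGTCA, 95 bases before its start, and none held TNAAGGTCA. These are matches of letters and say nothing of binding.

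The libraries held 52068837 to 88508349 UMIs (unique molecular identifiers, which count a captured transcript once) in 10172 to 12033 barcodes. The median barcode had 2588 UMIs in the aged 14D library and up to 8954 in the others, and 38.2% of the aged 14D barcodes had fewer than 2000. Of 67282 barcodes with more than 200 genes, 57326 passed limits on depth and mitochondrial RNA, and these are the kept cells below. Each kept cell was placed in a class by how many of 10 marker genes of each type it held, and none of the 7 genes was a marker. The classes tested were Dpp4+ fibroblast-like, Icam1+ preadipocyte-like, Cd142+ fibroblast-like, endothelial-like and mural-like cells. Levels are in CPM, the UMIs of a gene scaled by all UMIs of the class in 1 library, with exact Poisson intervals that cover counting error only. Each transcript gives 1 tag at its 3′ end, so gene length does not enter a level. Between 30 and 44 barcode sequences were shared by any pair of libraries. Few mural-like and adipocyte-like barcodes passed the limits on depth and mitochondrial RNA, 11.98% to 31.6% of the mural-like ones and 0 to 10 of the 29 to 107 adipocyte-like ones per library. In every library but the aged 14D one, the median adipocyte-like barcode (813.5 to 1212 UMIs) had fewer UMIs than any kept cell.

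The 7 genes spanned a wide range of abundance. Cox8b was the most abundant, with 1430, 3198 and 1570 UMIs in young TN, 3D and 14D kept cells and 1816, 3465 and 1714 in the aged ones. Cox7a1 had 371, 359 and 402 UMIs in the young and 153, 190 and 195 in the aged libraries, and Ppargc1a 79, 183 and 68 in the young and 196, 308 and 178 in the aged. Cox7a1 was thus higher in each young library than in any aged one. Ucp1 was rare, with 6, 108 and 58 UMIs in young and 4, 38 and 14 in aged libraries, and Cidea had 12, 41 and 33 against 11, 28 and 23. Dio2 gave 0 to 5 UMIs per library and Elovl3 2 to 9. Tests compared sums over a class, with libraries as samples, by edgeR's quasi-likelihood test adjusted over all genes with the Benjamini-Hochberg method, and a change was called at an adjusted p below 0.05. Dio2 and Elovl3 were too low for any of these tests, and the other 5 genes passed the filter on low counts in at least 1 class. With 1 library per age and temperature, each test of age compares 3 libraries with 3 and each test of temperature rests on 2 libraries per group.

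Ucp1 was at a few UMIs at TN and highest in the 3D libraries at both ages, but in the aged 3D library 1 barcode held most of it. Over all barcodes with more than 200 genes, Ucp1 had 7, 211 and 86 UMIs in the young TN, 3D and 14D libraries and 6, 412 and 15 in the aged ones. A single aged 3D barcode carried 343 of the 412, which is 83.3%. Without it the aged 3D library held 69 Ucp1 UMIs, and its level fell from 5.53 to 0.927 CPM. That barcode had 34232 UMIs, 4346 genes and 8 of the 10 adipocyte markers. It also had 5 of the 10 fibroblastic progenitor markers and 2 mural ones, but no endothelial marker. It was outside the kept cells, with 32.6% of its UMIs mitochondrial (limit 6.62%) and more UMIs than the 21345 of the deepest kept cell. Whether it was a fat cell, a doublet or a damaged cell was not tested. It carried most of the thermogenic RNA of its library in other genes too, with 149 of 201 Cidea and 10 of 16 Dio2 UMIs. It also held 88 of 332 Cox7a1, 207 of 3940 Cox8b, 17 Ppargc1a and 3 Elovl3 UMIs. The other 106 adipocyte-like barcodes of that library held 2 Ucp1 UMIs, 15 of Cidea and 147 of Cox8b. Across the other 5 libraries the 29 to 46 adipocyte-like barcodes held Ucp1 in the young 3D library, with 11 UMIs, and 0 elsewhere.

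**Figure D1:**
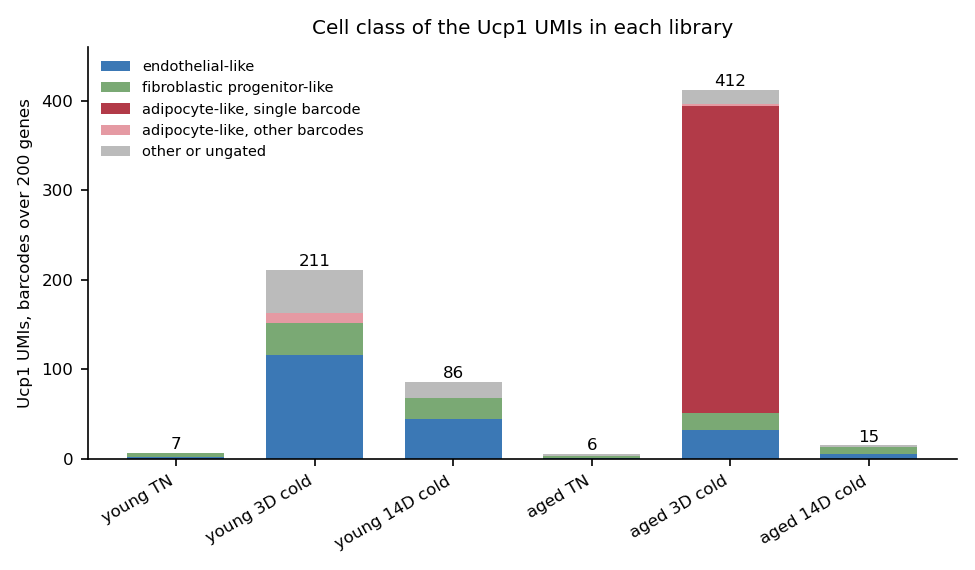
Ucp1 UMIs of each library (bars, linear axis from 0), divided by the class of the barcode that held them, over barcodes with more than 200 genes. One barcode gives 343 of the 412 UMIs of the aged 3D library, and endothelial-like barcodes give 116 of 211 in the young 3D library.

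The label adipocyte-like rests on the gate, which asked for at least 4 of the 10 adipocyte markers. Summed over a library, these barcodes held 9 or 10 of the 10 adipocyte markers, at median depths of 813.5 to 1212 UMIs. Since the same markers set the gate, this is no check of the label. In the young TN library they also carried red blood cell genes at 80830 CPM. Adipocyte-like barcodes were not tested, since 0 to 10 per library passed the limits. Cox8b was present in them in every library, with 6, 45 and 26 UMIs in the young TN, 3D and 14D libraries and 2, 354 and 24 in the aged, or 91.0, 886 and 665 CPM in the young and 45.3, 2051 and 554 in the aged. The aged 3D value was 1063 CPM without the single barcode. Both TN libraries thus lay below all 4 cold ones, with intervals of 33.4 to 198 (young TN) and 5.49 to 164 (aged TN) CPM that did not reach the lowest cold interval, from 355.

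Outside that barcode, Ucp1 and Cidea were concentrated in endothelial-like cells. Of the 108 kept Ucp1 UMIs in the young 3D library, endothelial-like cells held 69, Dpp4+ cells 12, Icam1+ preadipocyte-like cells 7, Cd142+ cells 1 and mural-like cells 0. Of the 58 in the young 14D library they held 36, against 12, 7, 0 and 0 in the same order. In the aged 3D library endothelial-like cells held 13 of 38, and Icam1+ cells held 15, which all lay in 1 cell that carried 5 adipocyte markers. The UMIs of the Dpp4+ class were also few and uneven, with 8 of the 12 in the young 14D library in 1 cell. Classes were compared within each library, so that the free RNA of a library reaches both sides of a comparison. It need not make up an equal share of each class, since the classes differ in depth, and its share was not tested.

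**Figure D2:**
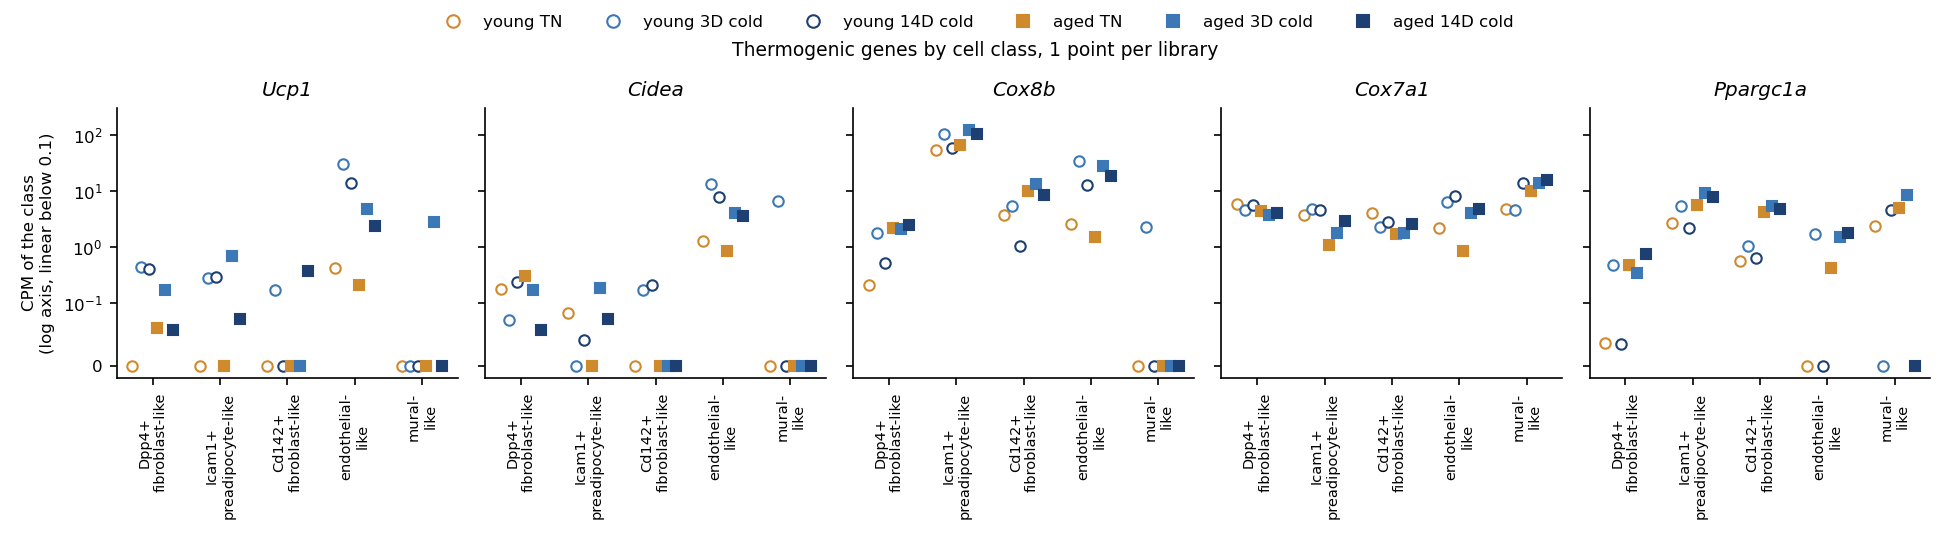
Level of 5 thermogenic genes (CPM of the class, logarithmic axis that is linear below 0.1) in 5 classes, with 1 point per library, open circles for young and squares for aged mice. Ucp1 and Cidea peak in endothelial-like cells, Cox8b in Icam1+ preadipocyte-like cells, and Cox7a1 is spread over all 5 classes.

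With library as a term and each class set against the mean of the other 4, Ucp1 was higher in endothelial-like cells by a log2 difference of 5.07 ± 0.39 (SE, adjusted p = 3.07e-12) and Cidea by 4.45 ± 0.46 (adjusted p = 1.35e-09). Between classes most genes differ, and 71.0% of all tested genes were called in this contrast, 35.1% higher and 36.0% lower, in which 4 of the 5 tested thermogenic genes were called. Both contrasts were called under each alternative that could be fitted. However, both genes passed the filter on low counts of this fit chiefly through the endothelial-like sums, where they are high. These tests thus do not stand apart from that choice, and the counts and shares are the description. In cells thinned to 2000 UMIs, 4.56% (exact binomial interval 2.81% to 6.95%) of young 3D endothelial-like cells held Ucp1, against 0.0747% of Icam1+ preadipocyte-like and 0.0303% of Dpp4+ cells of the same library. Unthinned, the endothelial-like share was 6.15% at a median of 4214 UMIs, while the Icam1+ and Dpp4+ cells were deeper, with medians of 9180 and 7985 UMIs. The share in endothelial-like cells thus lay far above that in the fibroblastic cells of the same library, whose cells were deeper. No mural-like cell of the 98 in that library held Ucp1, which allows a share of cells with a UMI of up to 3.06% by the 3-count limit and 3.69% by the exact interval.

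In endothelial-like cells Ucp1 was higher in the 4 cold than in the 2 TN libraries, and lower in aged than in young cold libraries. Kept endothelial-like cells numbered 491, 439 and 575 in the young TN, 3D and 14D libraries and 1334, 632 and 469 in the aged. They held 1, 69 and 36 Ucp1 UMIs in the young and 1, 13 and 4 in the aged libraries, that is 0.430, 29.6 and 14.0 CPM in the young and 0.212, 4.83 and 2.38 in the aged. All 4 cold libraries were above both TN libraries, and the 2 young cold libraries above the 2 aged ones. The ratio of 3D to TN was 68.9 (interval 11.96 to 2761) in young and 22.7 (3.42 to 967) in aged mice, and that of 14D to TN 32.7 (5.50 to 1325) and 11.2 (1.11 to 551), all against 1 UMI at TN. The temperature test gave log2 changes of 5.33 at 3D and 4.27 at 14D (adjusted p = 0.000525). Their size depends on the single UMI of each TN library. The gene passed the filter on low counts through the cold libraries, where it is high, so the test does not stand apart from that choice, and the counts above are the description. Cidea and Cox8b, with 3 to 7 UMIs in each TN library, passed in the same way. In this class 2.07% of all tested genes were called for temperature, and nothing is read from the 3 called among the 4 thermogenic genes tested.

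Cidea and Cox8b were also higher in the 4 cold than in the 2 TN libraries. Cidea had 3, 31 and 20 UMIs in young and 4, 11 and 6 in aged endothelial-like cells, or 1.29, 13.3 and 7.80 CPM and 0.849, 4.09 and 3.57. Its log2 changes were 2.85 at 3D and 2.24 at 14D (adjusted p = 0.0201), and this call was lost in 8 of 14 alternatives, among them leaving out the young TN library (adjusted p = 0.108), young 3D (0.117), young 14D (0.128), aged 3D (0.181) or aged 14D (0.0896). Cox8b had 6, 79 and 33 UMIs in young and 7, 74 and 31 in aged cells, or 2.58, 33.9 and 12.9 CPM and 1.49, 27.5 and 18.4. Every cold library was above both TN libraries, with log2 changes of 4.04 at 3D and 3.01 at 14D (adjusted p = 0.000157). The call was kept in all 14 alternatives, but the gene passed the filter through the cold libraries. That it was kept therefore adds no support, and the counts are the description. Cox7a1, with 5, 15 and 21 UMIs in young and 4, 11 and 8 in aged cells, had log2 differences of 1.91 and 2.18 and did not pass (adjusted p = 0.0750).

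**Figure D3:**
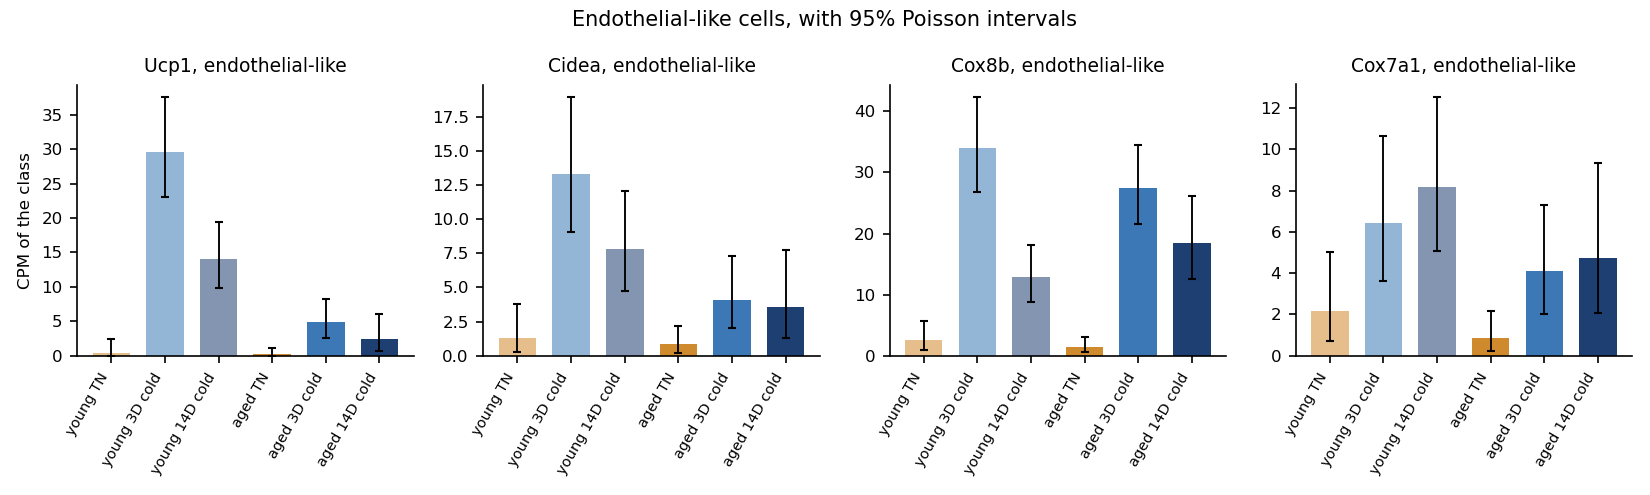
Levels of Ucp1, Cidea, Cox8b and Cox7a1 in endothelial-like cells (bars, CPM of the class, 1 library per bar) with 95% Poisson intervals. Ucp1, Cidea and Cox8b are higher in the 4 cold libraries than in the 2 TN libraries, and Ucp1 is lower in the aged cold libraries (4.83 and 2.38) than in the young ones (29.6 and 14.0), while the Cox8b values of the ages overlap.

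Age was tested in the same class with temperature as a term. Ucp1 was lower in aged mice by a log2 difference of -2.46 ± 0.33 (adjusted p = 0.00165), and it was the 1 gene called of the 4 tested, against 2.24% of all tested genes (1.15% lower and 1.09% higher in aged mice). The gene passed the filter on low counts chiefly through the young cold libraries, where it is high. This test thus does not stand apart from that choice either, and nothing is read from the count of calls. Within a temperature the aged to young difference was -2.62 at 3D and -2.56 at 14D on the log2 scale, and 1 UMI at either age gave no value at TN. The call was lost without the young 3D (adjusted p = 0.199), young 14D (0.0699) or aged 3D library (0.332). It was also lost with no temperature term (0.323) and with DESeq2 (0.0613). Cidea was at -1.30 ± 0.38 (adjusted p = 0.0998), and Cox8b at -0.02 ± 0.24 (adjusted p = 0.986). The mean level of Ucp1 was 14.7 ± 14.6 CPM in young and 2.47 ± 2.31 in aged mice (SD, n = 3), ranges that overlap because each age includes a TN library.

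Markers of other cells were measured beside these levels. The adipocyte list stood at 634, 816 and 377 CPM in young and 575, 1426 and 929 in aged endothelial-like cells, and was thus higher in the aged cold libraries, where Ucp1 was lower. Red blood cell genes stood at 914, 3126 and 949 in young and 2108, 2624 and 565 in aged cells. Per 1000 adipocyte-list UMIs of the class, young 3D endothelial-like cells held 36.3 Ucp1 UMIs (interval 28.2 to 46.2). In the same library Icam1+ preadipocyte-like cells held 3.53 (1.42 to 7.28), Dpp4+ cells 29.9 (15.3 to 52.7) and adipocyte-like barcodes 7.76 (3.86 to 13.9). In the young 14D library the same ratio was 37.3 (25.9 to 52.0) in endothelial-like, 49.0 (24.96 to 87.1) in Dpp4+ and 3.04 (1.22 to 6.27) in Icam1+ cells, while adipocyte-like barcodes held 0 Ucp1 against 1237 list UMIs. In both young cold libraries the ratio was thus higher in endothelial-like than in Icam1+ and adipocyte-like cells, but by the intervals not than in Dpp4+ cells. These intervals take each UMI as independent, while UMIs were clumped in cells. In the young 3D library 27 endothelial-like cells held the 69 UMIs, and 1 adipocyte-like barcode held 6 of 11. In the young 14D library 1 Dpp4+ cell held 8 of 12. The list is not specific to fat cells here, since Car3, Plin4 and Lipe gave 97.7% of it in young 3D Icam1+ cells and Car3, Retn and Lipe 87.1% in endothelial-like cells. In the aged 3D library the order was another one, with 3.39 (1.80 to 5.80) per 1000 list UMIs in endothelial-like, 8.54 (4.77 to 14.1) in Icam1+, where 1 cell held all 15 UMIs, and 8.48 (2.30 to 21.8) in Dpp4+ cells. Adipocyte-like barcodes of that library held 72.6 with and 0.433 without the single barcode.

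In 3 of the 4 cold libraries endothelial-like cells that held a Ucp1 UMI also held more Cidea and Cox8b than those without, at a like level of adipocyte markers in the young libraries. In the young 3D library the 27 cells with Ucp1 had Cidea at 114 and Cox8b at 174 CPM, against 6.43 and 24.3 in the 412 cells without. Their adipocyte list was at 798 against 817 CPM, their median depth 4188 against 4214 UMIs, and both sets held a median of 9 endothelial markers. In the young 14D library the 28 cells with Ucp1 had Cidea at 57.4 and Cox8b at 47.8 CPM against 5.69 and 11.4 in 547 cells without, at an adipocyte list of 354 against 378. In the aged 3D library the 9 cells with Ucp1 had Cidea at 137 and Cox8b at 274 CPM against 2.63 and 24.8 in 623 cells, at an adipocyte list of 1846 against 1422. In the aged 14D library the 3 cells with Ucp1 held 0 Cidea UMIs and 1 of Cox8b, or 0 and 77.6 CPM against 3.59 and 18.0 in 466 cells, at an adipocyte list of 77.6 against 935. These are sums over cells of 1 library, with 0 to 17 Cidea UMIs in the cells with Ucp1, and were not tested. Grouped by adipocyte markers held, 4.00% of young 3D endothelial-like cells with 0 such markers, 7.87% with 1 or 2 and 6.98% with 3 or more had a Ucp1 UMI. Their Ucp1 levels were 12.9, 40.2 and 41.8 CPM in that order. The shares were 3.01%, 7.14% and 2.33% in the young 14D library and 0.457%, 1.93% and 1.95% in the aged 3D one. In the aged 14D library they were 0.948%, 0.526% and 0%. How much of this Ucp1 is free RNA, or RNA of a fat cell in the same droplet, was not tested.

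**Figure D4:**
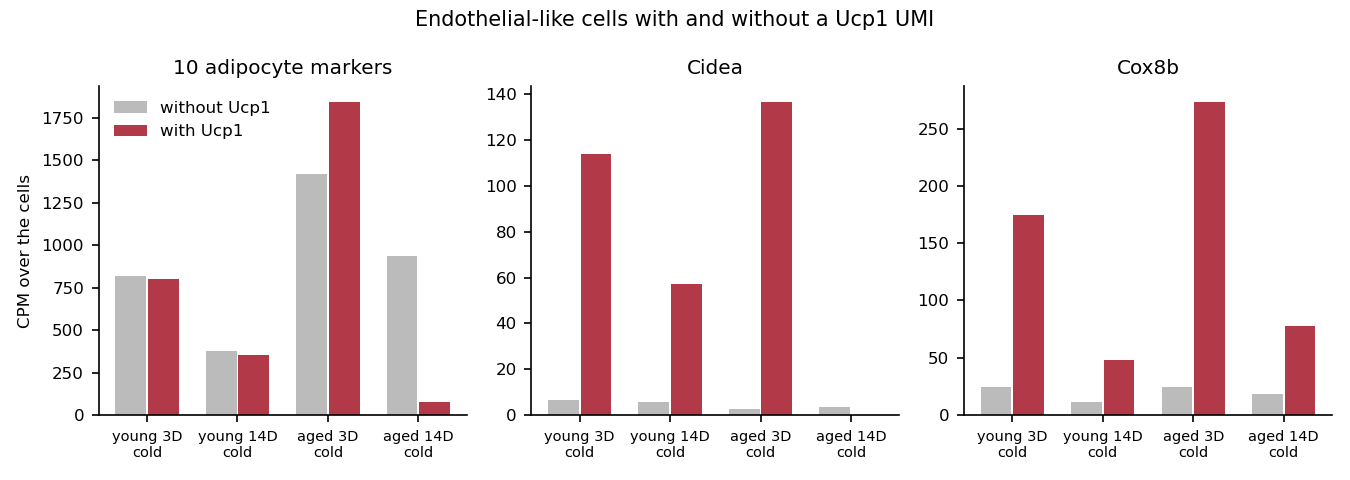
Summed level (CPM over those cells, linear axes from 0) of the 10 adipocyte markers, Cidea and Cox8b in endothelial-like cells with a Ucp1 UMI (27, 28, 9 and 3 cells) and without one (412, 547, 623 and 466 cells) in the 4 cold libraries. Cidea is higher in the cells with Ucp1 in 3 libraries and at 0 in the 3 cells of the aged 14D library, and the adipocyte markers are close to equal in the young libraries.

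Cox8b belonged mainly to Icam1+ preadipocyte-like cells, the committed progenitors of iWAT. It was higher there than in the mean of the other classes by a log2 difference of 5.22 ± 0.24 (adjusted p = 6.54e-17). In mural-like cells it was lower by -5.16 ± 1.59 (adjusted p = 0.00761), and both calls were kept in every alternative run. The mural-like value is at the floor, with 0, 1 and 0 UMIs in young and 0, 0 and 0 in aged kept cells. That 1 UMI is 2.24 CPM, more than the 1.81 CPM of young 3D Dpp4+ cells, so a level below that of Dpp4+ cells is not shown. In Icam1+ cells 3 of 5 thermogenic genes were called between classes, against 62.7% of all genes (35.0% higher and 27.8% lower), and in mural-like cells 2 of 5, against 51.7% (23.5% and 28.2%). The young TN, 3D and 14D libraries held 1265, 2544 and 1392 UMIs in this class and the aged ones 1300, 2614 and 1368. These were levels of 53.8, 101 and 58.1 CPM in young and 66.9, 123 and 101 in aged mice. The 3D library was the highest at each age, 1.89 times TN in young and 1.84 times in aged mice, while 14D was 1.08 times TN in young and 1.51 times in aged.

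For temperature Cox8b was the 1 gene called of 3 tested in Icam1+ cells, against 1.61% of all genes (adjusted p = 0.0389). Its log2 changes were 0.94 at 3D (adjusted p = 0.0193) and 0.37 at 14D (adjusted p = 0.258). The call was lost without the young 3D (adjusted p = 0.206) or aged 3D library (0.121), which are the 2 libraries of that time, with no age term (0.612), and with all barcodes over 200 genes (0.0507). For age all 3 genes tested in this class were called, Cox8b and Ppargc1a higher and Cox7a1 lower in aged mice, against 8.55% of all genes, 4.84% higher and 3.70% lower. The log2 difference of Cox8b was 0.47 ± 0.10 (adjusted p = 0.0404), from means of 71.1 ± 26.4 CPM in young and 97.0 ± 28.3 in aged mice (SD, n = 3) whose ranges overlap. It was lost with no temperature term (0.480) and without the young 3D (0.1002), young 14D (0.0836), aged 3D (0.115) or aged 14D library (0.0751). Icam1+ marker genes in this class stood at 10330, 10430 and 9184 CPM in young and 12440, 10270 and 10110 in aged mice.

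Part of the oxidase subunit RNA of these cells was the Cox8b form. Of the summed UMIs of Cox8a and Cox8b, Cox8b made up 9.29%, 14.7% and 9.18% in the young TN, 3D and 14D libraries and 12.3%, 18.1% and 14.8% in the aged. At each temperature the aged share lay above the young one, and it was highest at 3D at each age. It was 0.0539% in young TN Dpp4+ cells and 0.844% in young TN Cd142+ cells. In the remaining progenitor-like cells, which fell in none of the 3 classes, Cox8b was at 5.86, 26.5 and 6.05 CPM in young and 30.9, 37.6 and 16.7 in aged mice.

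Cox8b was uneven among preadipocyte-like cells. It was found in 26.6%, 36.5% and 23.3% of young and 28.0%, 41.7% and 24.9% of aged Icam1+ cells, and in 8.45% to 18.4% after thinning to 2000 UMIs. Had the same UMIs fallen on cells in proportion to depth, 38.5% to 59.8% would have held one. The 10% of cells with the most Cox8b held 48.4% to 69.4% of its UMIs, with up to 19 in 1 cell. Cells with and without a Cox8b UMI before thinning were then described side by side, at levels from cells thinned to 2000 UMIs. The split was made after its values were seen and is given with no test. Cells with Cox8b were deeper in every library, with medians such as 11418 against 10760.5 UMIs in young TN and 8482 against 6707 in aged 14D. The sets numbered 567, 976 and 627 cells with Cox8b in young and 733, 1186 and 561 in aged libraries, against 1564, 1700 and 2066 and 1868, 1656 and 1216 without. Ppargc1a stood at 8.19 against 4.11 CPM as the mean of 6 libraries, Fabp4, a fatty acid carrier, at 2975 against 1923, and Plin4, a lipid droplet coat protein, at 44.1 against 27.4. Pparg, the regulator of fat cell differentiation, was at 56.8 against 46.0, and Car3, a carbonic anhydrase abundant in fat, at 48.4 against 24.9. These 5 genes were higher in the cells with Cox8b in 6 of 6 libraries. Plac8 (26.6 against 76.9) and Fn1 (132 against 286), were lower in 6 of 6. Prdm16, a regulator of the beige fate, stood at 3.77 against 4.21 and was higher with Cox8b in 2 of 6. Of these genes all but Ppargc1a, Pparg and Prdm16 were named with their values in view.

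**Figure D5:**
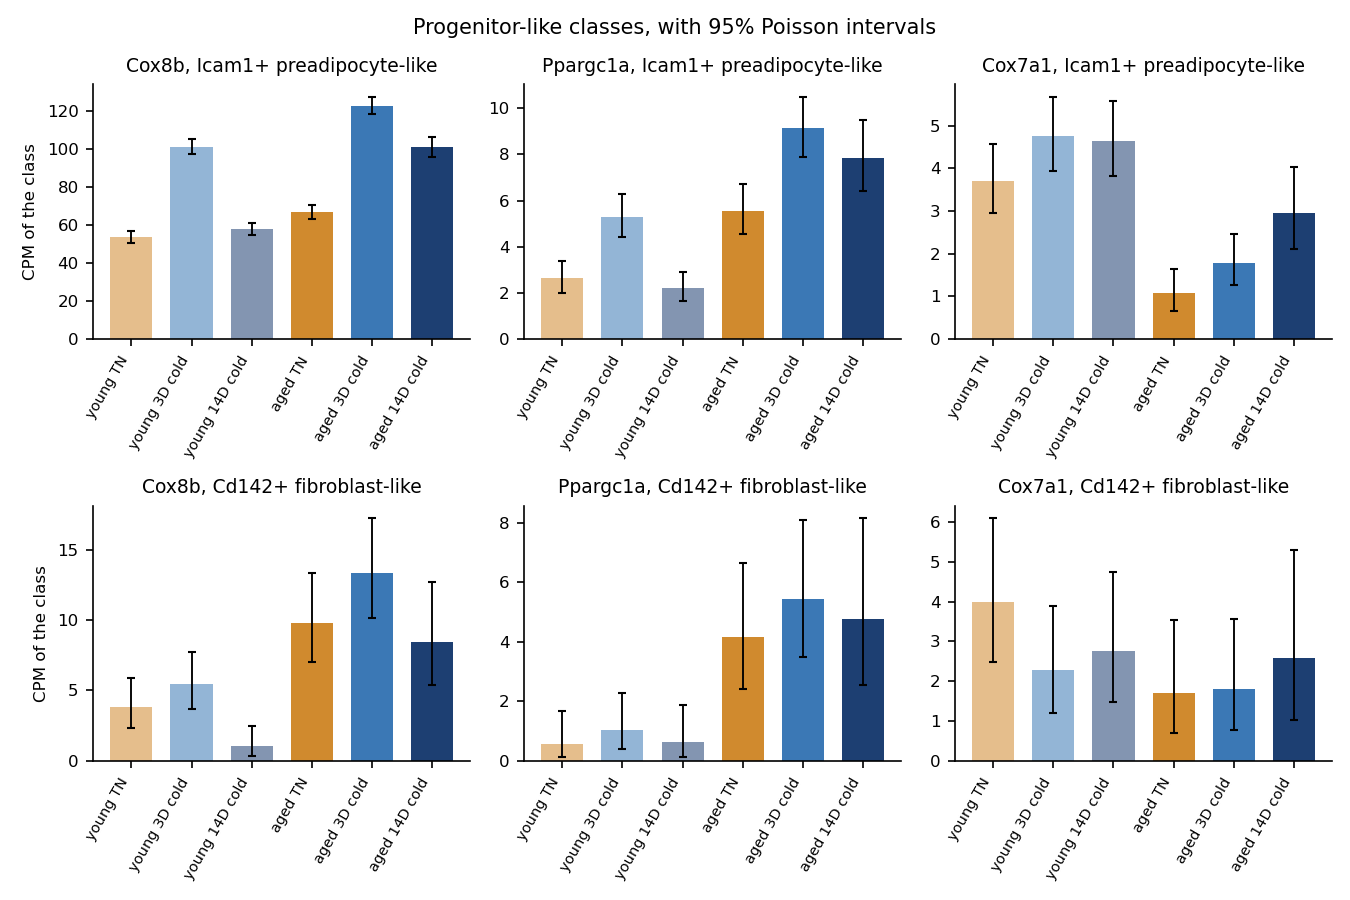
Levels of Cox8b, Ppargc1a and Cox7a1 (bars, CPM of the class, 1 library per bar, each panel with its own axis from 0) in Icam1+ preadipocyte-like (top) and Cd142+ fibroblast-like cells (bottom), with 95% Poisson intervals. Cox8b peaks at 3D in Icam1+ cells, Ppargc1a is higher in all aged than in all young libraries of both classes, and Cox7a1 is lower in all aged libraries of the Icam1+ class.

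In Cd142+ fibroblast-like cells, a further fibroblastic progenitor population, both Cox8b and Ppargc1a were higher in aged mice. These were 2 of the 3 genes tested, against 7.66% of all genes called for age, 4.04% higher and 3.62% lower. Nothing is read from this count, since Ppargc1a passed the filter on low counts through the aged libraries. Cox8b was at 3.798, 5.42 and 1.06 CPM in young and 9.79, 13.4 and 8.44 in aged mice, with no overlap, and differed by 1.62 ± 0.29 on the log2 scale (adjusted p = 0.00631). The call was lost with no temperature term (0.0615), with cells at 2000 UMIs (0.0597) and without the aged 3D library (0.0536). Beside it the Icam1+ marker genes in this class stood at 3386, 3572 and 3463 CPM in young and 4500, 2902 and 2563 in aged mice, higher in 1 of the 3 aged libraries and lower in 2. Temperature gave 0 calls among the 3 genes by edgeR and 0 by DESeq2, against 1.39% of all genes by edgeR, and Cox8b alone had an unadjusted p below 0.05 (0.0273, adjusted p = 0.308). In Dpp4+ cells Cox8b was at 0.214, 1.81 and 0.516 CPM in young and 2.15, 2.05 and 2.48 in aged mice, with no overlap, and did not pass for age (log2 difference 1.49 ± 0.46, adjusted p = 0.0584).

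Ppargc1a, the mitochondrial coactivator, was higher in aged Icam1+ and Cd142+ progenitor-like cells. In Icam1+ cells it had 62, 133 and 53 UMIs in the young TN, 3D and 14D libraries and 108, 194 and 106 in the aged, or 2.63, 5.30 and 2.21 CPM against 5.55, 9.12 and 7.84. Each aged library was above each young one. The log2 difference was 1.19 ± 0.21 (adjusted p = 0.0185), and the call was lost with no temperature term (0.169) and with cells at 2000 UMIs (0.137). In Cd142+ cells it had 3, 6 and 3 UMIs in young and 17, 24 and 13 in aged libraries, or 0.570, 1.05 and 0.639 CPM against 4.16, 5.44 and 4.77, again with no overlap. The log2 difference there was 2.63 ± 0.40 (adjusted p = 0.00303), and the adjusted p was 0.0537 without the aged 3D library. In that class the gene passed the filter on low counts through the aged libraries, where it is high. This test thus does not stand apart from that choice, and the counts are the description. In Dpp4+ cells Ppargc1a had 1, 13 and 1 UMIs in young and 8, 8 and 13 in aged libraries. Its levels there overlapped between the ages, with the aged 3D library below the young 3D one. Age did not pass in that class (log2 difference 1.51 ± 0.78, adjusted p = 0.235). The highest level in Icam1+ cells was at 3D for either age, but temperature did not pass (log2 differences 0.91 and 0.19, adjusted p = 0.153). Predicted genes overlap the span of Ppargc1a on the same strand, and whether their exons overlap its exons was not tested.

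Between classes Ppargc1a was higher in Icam1+ cells (log2 difference 2.34 ± 0.23, adjusted p = 8.18e-10) and lower in Dpp4+ cells (-2.76, adjusted p = 1.93e-07). In Dpp4+ cells it was the 1 gene called of 5, against 69.5% of all genes, 37.8% higher and 31.7% lower. In Cd142+ cells it was at 0.92 (adjusted p = 0.0207), a call lost in 6 of 12 alternatives, with fixed cell limits (0.437), a stricter gate (0.0541) or all barcodes over 200 genes (0.526) and without the aged TN (0.115), aged 3D (0.119) or aged 14D library (0.0553). It was lower in endothelial-like cells (-1.56, adjusted p = 0.00607), which was lost without the aged TN library (0.0786). Over all mural-like barcodes with more than 200 genes, whose median mitochondrial share was 8.82% to 10.0%, it was at 15.3, 6.36 and 13.2 CPM in young and 19.3, 15.9 and 16.7 in aged libraries, from 22 to 99 UMIs. In each of the 6 libraries that was above the level in Icam1+ cells counted the same way, and each aged library was above each young one with overlapping intervals. No thermogenic gene passed the filter for a test of age or temperature among kept mural-like cells, where 1.04% (0.899% higher and 0.144% lower) and 0.722% of all genes were called.

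Cox7a1 was the most evenly spread of the genes, and lower in aged progenitor-like cells. In Icam1+ cells it had 87, 119 and 111 UMIs in young and 21, 38 and 40 in aged libraries, or 3.70, 4.74 and 4.63 CPM against 1.08, 1.79 and 2.96. The groups did not overlap, with a log2 difference of -1.24 ± 0.25 (adjusted p = 0.0296). This call was lost without the young 3D (0.161) or aged 3D library (0.150), with no temperature term (0.144), with cells at 2000 UMIs (0.0671) and with all barcodes over 200 genes (0.0508). As a share of Cox7a1 and Cox7a2 together it was 1.58%, 1.95% and 1.92% in young and 0.491%, 0.772% and 1.14% in aged Icam1+ cells. Cox8b was thus higher and Cox7a1 lower in aged Icam1+ cells, although both are heart-type subunits of 1 enzyme. In Dpp4+ cells Cox7a1 was at 5.80, 4.65 and 5.61 CPM in young and 4.37, 3.71 and 4.09 in aged mice, and was the 1 gene called of 4 tested, against 15.5% of all genes, 7.75% lower and 7.74% higher. Its log2 difference was -0.43 ± 0.12 (adjusted p = 0.0440), and 10 of 14 alternatives lost the call. In Cd142+ cells it was at 3.99, 2.27 and 2.77 CPM in young and 1.71, 1.81 and 2.57 in aged mice, which overlap (adjusted p = 0.445). For temperature 0 of the 4 genes tested in Dpp4+ cells were called by edgeR and 0 by DESeq2, against 5.66% of all genes by edgeR, and Ucp1 alone had an unadjusted p below 0.05 (0.0346).

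Mural-like cells had more Cox7a1 than the mean of the other classes (log2 difference 1.26, adjusted p = 0.0139), although among kept cells the young TN level of 4.81 CPM was below that of Dpp4+ cells and the young 3D level of 4.49 below those of Dpp4+, Icam1+ and endothelial-like cells, each from 2 UMIs. This was a call lost with cells at 2000 UMIs (0.155) and without the aged TN (0.0560) or aged 3D library (0.0509). Over all barcodes with more than 200 genes the mural-like level was 13.1, 12.7 and 15.8 CPM in young and 13.9, 17.4 and 18.9 in aged libraries. The age difference seen in Icam1+ cells was not present in these values. In Cd142+ cells 3 of 5 genes were called between classes, against 52.3% of all genes (30.4% higher and 21.9% lower), with Cox7a1 at -0.81 (adjusted p = 0.0167) and Ucp1 at -2.81 (adjusted p = 0.0337). The Cox7a1 call was lost with cells at 2000 UMIs (0.125) and without the young 14D library (0.0805), and that of Ucp1 with a stricter gate (0.0650) and without the young TN (0.0538), young 14D (0.0789) or aged 3D library (0.988). Cidea was lower in Icam1+ cells (-2.63, adjusted p = 0.00704), a call lost without the young 3D (0.958) or young 14D library (0.0673), and Cox8b was also higher in endothelial-like cells (1.60, adjusted p = 0.0116), lost without the young 3D (0.0932) or aged 3D library (0.0579). Cd142+ cells held 0, 1 and 0 Ucp1 UMIs in young and 0, 0 and 1 in aged libraries. Icam1+ cells held 2, 0 and 1 Cidea UMIs in young and 0, 4 and 1 in aged libraries. Both genes passed the filter of this fit chiefly through the endothelial-like sums, so these Ucp1 and Cidea tests do not stand apart from that choice, and the counts are the description.

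Summed over all kept cells, age gave 3 calls among 5 genes, against 10.0% of all genes, 5.20% higher and 4.80% lower. Cox8b was higher (0.60, adjusted p = 0.0174) and Ppargc1a higher (1.53, adjusted p = 0.0166) in aged mice, and Cox7a1 lower (-0.66, adjusted p = 0.0401), while Ucp1 was at -1.18 (adjusted p = 0.0567). The Cox8b call was lost without the young 14D (0.0831) or aged 14D library (0.0859), and so was that of Ppargc1a (0.0686 and 0.0773). The Cox7a1 call was lost in 7 of 13 alternatives, without the young TN (0.0650), young 3D (0.196), young 14D (0.0871), aged 3D (0.180) or aged 14D library (0.0881), with no temperature term (0.127) and with all barcodes over 200 genes (0.124). The last of these includes the single barcode, which held 88 of the 332 Cox7a1 UMIs of the aged 3D library. Temperature gave 0 calls of 5 by edgeR over all kept cells, against 0.0635% of all genes, with 4 at an unadjusted p below 0.05 and 2 by DESeq2. Whether the age difference varied between classes was tested in 1 fit, and 0 of 5 genes passed by edgeR or DESeq2, against 2.17% of all genes, with Ucp1 alone at an unadjusted p below 0.05 (0.00718, adjusted p = 0.143). Whether the temperature response varied gave 0 of 5 by both tools too, against 0.116%, with Cox8b alone below 0.05 unadjusted (0.0286, adjusted p = 0.608). The age and temperature calls of 1 class are therefore not shown to be particular to it. In shares of thinned cells with a UMI, the ages did not overlap in 3 of 27 pairs of gene and class with any UMI, close to the 12.9% over all genes. The smallest p of an exact permutation test of 3 libraries against 3 is 0.1.

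Dio2 and Elovl3 were at the limit of detection. Dio2 had 3, 1 and 4 UMIs in the kept cells of the young and 0, 5 and 1 in those of the aged libraries, and Elovl3 5, 6 and 8 against 6, 9 and 2. In Icam1+ cells Dio2 gave 1 UMI in the young 3D library and 0 in the other 5, and a count of 0 allows up to 0.128 CPM in young TN. Over all barcodes with more than 200 genes Dio2 had 10, 11 and 9 UMIs in young and 5, 16 and 6 in aged libraries, of which the single barcode held 10 of the 16. A difference in either gene was not detectable at this depth.

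A list of 30 other genes of the thermogenic and beige programme, which held regulators such as Prdm16 and Ebf2, the receptor Adrb3 and enzymes such as Ckb, was read from the same fits. For age in Icam1+ cells 19 were tested and 4 called (3 by DESeq2), all lower in aged mice, against 3.70% of all genes called lower, with a median log2 difference of -0.17 over the list and 0.00 over all genes. Cited1, a coregulator used as a beige marker, was at 18.9, 7.65 and 22.4 CPM in young and 5.40, 4.89 and 7.32 in aged cells (log2 difference -1.38, adjusted p = 0.0140). Tmem26, a surface protein used as a beige marker, was at 14.5, 14.0 and 17.7 against 10.3, 8.84 and 9.62 (-0.67, adjusted p = 0.0131). Klhl13, another beige marker, was at -0.37 (adjusted p = 0.0158). Fgf21, a hormone gene, had 46, 32 and 61 UMIs in young and 13, 16 and 11 in aged libraries (-1.31, adjusted p = 0.0453). For Cited1 the young 3D level lay just above the aged 14D level, and for Tmem26 and Fgf21 the ages were further apart. In Dpp4+ cells 4 of 19 were called for age (3 by DESeq2), against 15.5% of all genes, with Tmem26 higher (0.44) and Cited1 (-1.78), Ckb (-0.47) and Klhl13 (-0.44) lower. In Cd142+ cells 2 of 15 were called (1 by DESeq2), against 7.66% of all genes, Prdm16 higher (1.45, adjusted p = 0.0212) and Cited1 lower (-1.60, adjusted p = 0.00281). In endothelial-like cells 2 of 14 were called (0 by DESeq2), against 2.24% of all genes, Pdk4 higher (1.03, adjusted p = 0.0178) and Tbx1 lower (-1.69, adjusted p = 0.0240).

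Calls for temperature in this list came from Dpp4+ and Icam1+ cells. In Dpp4+ cells 3 of 19 were called (3 by DESeq2), against 5.66% of all genes, with Ckb (0.30 at 3D and 0.55 at 14D) and Pdk4 (0.82 and 0.64) higher and Tmem26 (-0.999 and -1.30) lower in the cold. In Icam1+ cells 1 of 19 was called (1 by DESeq2), against 1.61% of all genes, Ckb, creatine kinase B, with log2 changes of -0.36 at 3D and 0.33 at 14D (adjusted p = 0.0453). For temperature 0 of the 15 tested in Cd142+, 14 in endothelial-like and 4 in mural-like cells were called by edgeR or DESeq2, with 4, 4 and 3 at an unadjusted p below 0.05. By edgeR 1.39%, 2.07% and 0.722% of all genes were called in these classes. Against such shares 0 calls among so few genes say little.

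Relatives of the 7 genes were read the same way, 18 in all. For age in Icam1+ cells 4 of 13 were called (1 by DESeq2), against 8.55% of all genes, with Cidec (1.69, adjusted p = 0.0378) and Elovl4 (1.01, adjusted p = 0.0494) higher and Elovl5 (-0.36, adjusted p = 0.0463) and Elovl6 (-0.86, adjusted p = 0.00309) lower. Cidec had 3, 7 and 9 UMIs there in young and 8, 19 and 17 in aged libraries. It passed the filter on low counts chiefly through the aged cold libraries, where it is high, so its counts are the description and nothing is read from the count of calls. Elovl6, which elongates newly made fatty acids, was at 25.3, 20.1 and 27.4 CPM in young and 15.8, 10.1 and 14.5 in aged cells, with no overlap. In endothelial-like cells Cidec, a lipid droplet protein of white fat cells and 1 of the adipocyte markers, was at 24.1, 41.7 and 18.3 CPM in young and 27.8, 79.5 and 45.8 in aged mice. It was called for age, 1 of 10 relatives tested there by edgeR and 0 by DESeq2, against 2.24% of all genes (0.86, adjusted p = 0.0189), and for temperature (1.30 at 3D and 0.32 at 14D, adjusted p = 0.00593). Ucp2, a widespread relative of Ucp1, was also called there for temperature (0.89 and 0.54, adjusted p = 0.00131), so that 2 of 10 relatives were called by edgeR and 1 by DESeq2, against 2.07% of all genes.

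By Pearson correlation of log2(CPM + 1) over 30 sums, 5 classes in 6 libraries, the genes most like Ucp1 were Dsg2 (0.82), Colq (0.82) and Cidea (0.80), and those most like Cidea were Wfdc21 (0.90), Olfr1396 (0.88) and Gpd1 (0.87). Cox8b was most like H2-Q10 (0.92), Itm2b (0.88) and Igsf21 (0.88), Cox7a1 like Leo1 (0.74), Gys1 (0.72) and Postn (0.72), and Ppargc1a like Alg6 (0.81), Atp6v0a1 (0.80) and Lrrc58 (0.80). The sums of 1 library share its depth and those of 1 class its cells, so these values describe the pattern over classes and libraries. Dio2 and Elovl3, with fewer than 100 UMIs, were left out of this comparison.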

How the data were processed

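Single-cell 3′ RNA sequencing (10x Genomics) of sorted CD45- stromal vascular cells was measured in 6 libraries. The authors made the counts with Cell Ranger against mm10, and the deposited values are raw UMI counts per gene and called barcode, before the study's own filtering and normalization. The submitters' notes also name R 4.1.1 and Seurat.

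Python 3.11.15 (numpy 2.4.6, scipy 1.17.1, pandas 2.3.3) and R 4.3.3 (edgeR 4.0.16, DESeq2 1.42.0) were used. Barcodes with more than 200 genes were kept within 3 median absolute deviations (scaled by 1.4826) of their library's median log10 UMIs and genes, and below the same limit for mitochondrial UMIs, 5.32% to 7.11%. A class needed 4 of its 10 markers and 2 more than the next list, which stands in for a doublet caller, and at least 20 cells in every library. Progenitor-like cells were divided by markers above the 75th percentile, with at least 3 and 2 more than the next list, and 8.36% to 14.0% per library lay within 1 marker of that limit.

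UMIs were summed per class and library. Age was tested with temperature as a term and the reverse, classes and interactions with library as a term, all by edgeR (glmQLFTest after filterByExpr, with TMM scaling). SE is the size of the log2 difference over the square root of F. With 1 library per age and temperature, no spread between replicate libraries could be measured. P-values for age and temperature rest on how far libraries depart from the sum of an age and a temperature effect. Those between classes rest on how far class sums depart from the sum of a library and a class effect. Either departure may be technical. The fits were checked on simulated counts in which 200 genes were shifted by 1 on the log2 scale. For age 83.5% of these were recovered in Dpp4+ (13176 genes), 87.5% in Icam1+ (13101), 81.5% in Cd142+ (11087), 74.5% in endothelial-like (10550) and 58.5% in mural-like cells (6069). The simulation gave every gene the same spread between libraries beyond counting error and no temperature effect, and shifted only genes that passed the filter. The shares recovered thus need not hold for the measured counts. For shares, cells were thinned to 2000 UMIs, intervals are at 95%, and the upper limit for a gene at 0 is 3 counts.

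Named are the 7 thermogenic genes, their relatives, programme genes that passed a test, and for each gene with at least 100 UMIs the 3 genes most like it. The genes, lists and tests were chosen with earlier results of these data known. Alternatives were DESeq2, RLE in place of TMM scaling, no filter on low counts, fixed cell limits, a stricter gate, cells at 2000 UMIs, no second term and each library left out. Fits on all barcodes over 200 genes, values without the single barcode and the split by Cox8b were added after seeing the data.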

Additional observations from a re-analysis of the deposited data

Results flagged for a closer look

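A single barcode of the aged 3D cold library held 343 Ucp1 UMIs. It stands out as a signal in a barcode that the main tests did not use. Only the sums over all barcodes with more than 200 genes, an added alternative, held it. The barcode was removed, with a mitochondrial share of 32.6% and 34232 UMIs, above the 21345 of the deepest kept cell of that library. The kept cells of the same library held 38 Ucp1 UMIs in all and those of the aged TN library 4. Its Ucp1 level was 10020 CPM of its own UMIs, against 14.5 (interval 1.75 to 52.2) in the other 106 adipocyte-like barcodes of the library, and its Cidea level was 4353 against 108 CPM. The next highest Ucp1 counts among barcodes over 200 genes of that library were 16 in an endothelial-like and 15 in an Icam1+ preadipocyte-like barcode.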

How the results depend on the processing

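Over classes, 7 of 14 tests of thermogenic genes were called for age and 4 of 14 for temperature, 13 of 25 between classes, and over all kept cells 3 of 5 for age and 0 of 5 for temperature. In the classes where these genes were tested, 2.24% to 15.5% of all genes were called for age and 1.39% to 5.66% for temperature. Between classes it was 51.7% to 71.0%, so nothing is read from that count. Nothing is read from the counts for age and temperature over classes either. They include Ucp1, Cidea and Cox8b in endothelial-like and Ppargc1a in Cd142+ cells, which passed the filter on low counts through the libraries where they are high. Over all kept cells 10.0% of all genes were called for age and 0.0635% for temperature. No call changed direction in any alternative. Calls for age over classes fell to 1 with no temperature term, to 2 with cells at 2000 UMIs, where 8 tests in place of 14 passed the filter, and were 3 to 7 when each library was left out in turn (3 without aged 3D, 4 without young 14D). Calls for temperature over classes were 8 with no filter on low counts (34 tests), 1 with no age term and 2 to 5 when each library was left out (2 without young 3D). Over all kept cells, calls for age were 0 with no temperature term and 0 to 4 when each library was left out, with 0 without young 14D or without aged 14D. Those for temperature were 2 with DESeq2, 2 with no filter, 2 with fixed cell limits, 1 with all barcodes over 200 genes and 0 to 2 when each library was left out (2 without young TN or aged TN). Calls between classes were 3 with cells at 2000 UMIs (10 tests) and 9 to 12 when each library was left out. Without a filter on low counts 1 gene was called for age by class and 1 for temperature by class. Pairs of gene and class whose ages did not overlap in the share of cells with a UMI were 6 without thinning, against 3 with it. The cause of these shifts was not tested beyond the number of tests. The calls kept in each alternative that could be fitted (12 for those of Ucp1, Cidea and Ppargc1a, which could not be fitted with cells at 2000 UMIs, 13 or 14 for those of Cox8b) were Cox8b and Ppargc1a in Icam1+, Ppargc1a in Dpp4+, Ucp1 and Cidea in endothelial-like and Cox8b in mural-like cells between classes, and Cox8b for temperature in endothelial-like cells. Among these, the endothelial-like calls are of genes that passed the filter on low counts chiefly through the sums where they are high. That these were kept adds no support. The mural-like call rests on 1 Cox8b UMI in the kept mural-like cells of the young 3D library and 0 elsewhere. No paired analysis was possible because each age and temperature group has 1 library. The depth of Dio2 and Elovl3 allows no statement on their change.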

Other observations

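Schwann-like cells, 14 to 37 kept cells per library, were too few to test. Cox7a1 had 3, 4 and 1 UMIs in them in the young TN, 3D and 14D libraries and 1, 0 and 1 in the aged, or 43.8, 53.0 and 18.0 CPM in young and 8.22, 0 and 25.5 in aged libraries. The young TN and 3D levels lay above those of the 5 tested classes of the same libraries, on 3 and 4 UMIs.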
